A study of Mus musculus with 18 samples.

Results

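The tibialis anterior (TA) of old and young wild-type mice was compared in 6 RNA sequencing libraries, 3 from old and 3 from young animals, out of 18 libraries in the series. The members are the libraries titled TA_Old and TA_Young, replicates 1 to 3, and the comparison covered 10859 genes with enough reads out of 29542 genes with an identifier. The other libraries came from soleus and extensor digitorum longus (EDL) muscles of the same 2 age classes. All animals are labelled wild type (WT), with no treatment. The ages in weeks or months, the sex, the number of mice behind a library and whether muscles share animals are not stated in the labels, so p-values measure the spread between these libraries, which may be technical. The comparison asks which messenger RNAs differ in level between old and young TA.

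The TA lifts the foot and is built almost wholly of fast fibres, which carry the myosin heavy chains IIb (Myh4), IIx (Myh1) and IIa (Myh2). Ageing muscle loses fibre mass and some of its nerve contacts. In innervated adult fibres the acetylcholine receptor genes are transcribed mainly by the nuclei under the nerve terminal. When the nerve falls silent, the myogenic factor myogenin and its partners bind E-boxes in the receptor promoters, transcription spreads along the fibre, and the fetal gamma subunit reappears beside the adult epsilon subunit.

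Levels are read numbers scaled to library size (CPM, scaled by TMM) unless a sentence says TPM, which is scaled per transcript length as well. A log2 fold change is positive where old TA was higher, and is given with its standard error (SE). A gene was called when the Benjamini-Hochberg adjusted p of edgeR's quasi-likelihood F test, over all 10859 genes, was under 0.05, and every adjusted p below is from that test unless another is named. The old TA libraries held 1469222, 1866652 and 1154747 reads and the young ones 4169196, 7658961 and 2216236, so the deepest old library lay under the shallowest young one. Transcripts of the mitochondrial genome made up 27.0% to 29.2% of the reads in genes in old and 21.3% to 28.0% in young TA. Of the TPM of the 4 adult myosin heavy chains, Myh4 held 63.2% ± 7.06 (SD, n = 3) in young and 74.0% ± 6.32 (n = 3) in old TA. The slow Myh7 held 0.0819% ± 0.0535 and 0.0434% ± 0.0399, against 43.2% ± 7.02 for Myh7 in young soleus. In EDL, also fast, Myh4 held 86.9% ± 2.61 in young and 84.1% ± 1.93 in old libraries (n = 2 each). These shares set TA apart from soleus, and whether they tell TA from EDL was not tested. In bulk tissue, fewer cells of a type and less RNA per cell cannot be told apart.

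In old TA 24 genes passed the test, 17 higher and 7 lower, which is 0.157% and 0.0645% of the genes tested. Among those that rose were a receptor gene of the neuromuscular junction (Chrna1) and a gene that responds to lost nerve input (Ampd3). So were 2 receptors of the tumour necrosis factor family (Eda2r, Tnfrsf23) and a phosphatase (Dupd1). Among those that fell were Myh2, Myl3, Myoz2, Smtnl1 and Pdlim1 of the myosin and Z-disc apparatus. For all 24 the 3 old libraries lay on one side of the 3 young ones, a separation that 7.19% of all genes tested showed upward and 9.41% downward. Leaving out 1 TA library at a time left 9 to 24 calls: 9 without old replicate 2, 15 without old replicate 3, and 13, 11 and 15 without young replicates 1, 2 and 3. With no adjustment 931 genes (8.57%) had p under 0.05 (edgeR), and of the genes tested DESeq2 called 74 and limma-voom 17. These are the all-gene values to set beside the counts given for each list below. A fit on the 6 TA libraries alone, which estimates the spread without soleus and EDL, called 140 of 7098 genes (1.97%), 82 higher (1.16%) and 58 lower (0.817%). Of the 24 it kept 17, lost 3 (Myl12a, Chrna1 and Myh2) and did not test 4 (Emb, Krt8, Gm15501 and Gm2606), which were under its count minimum. All 18 libraries grouped by their titles, which adds 2 EDL libraries whose title and file name give opposite ages, gave 4 calls, all lower, of which 3 (Myoz2, Myh2 and Smtnl1) were among the 24.

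**Figure D1:**
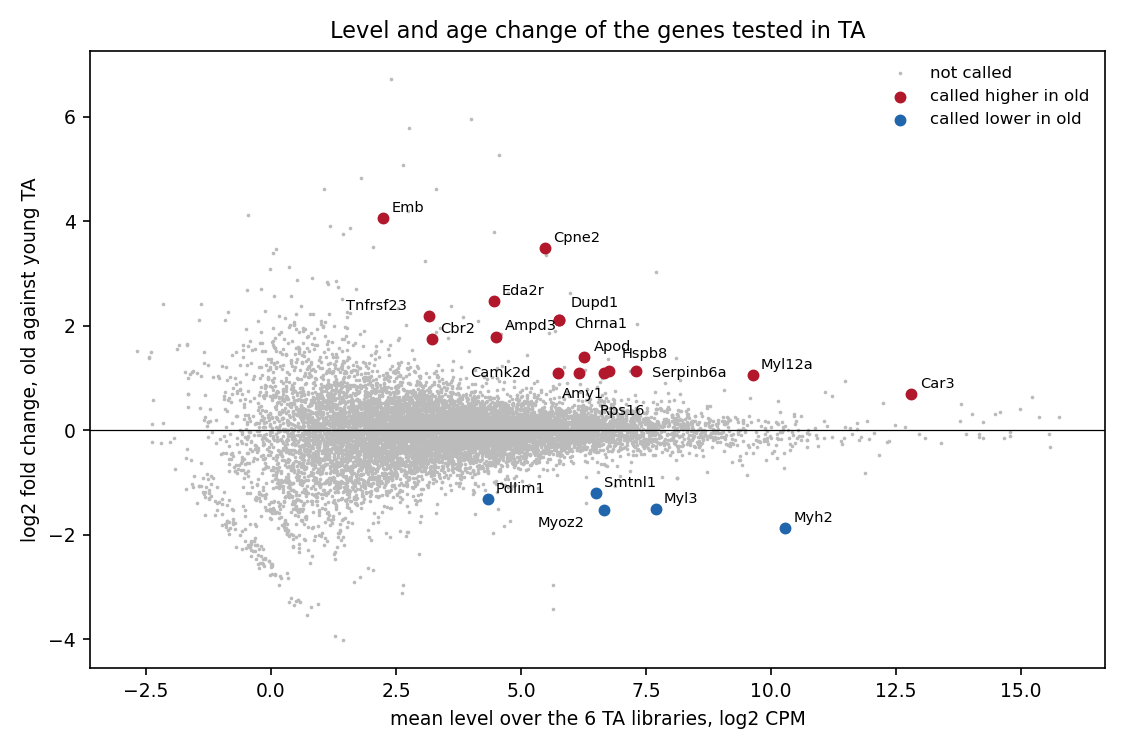
Each point is 1 gene, with its mean level over the 6 TA libraries (log2 CPM) on the horizontal axis and its log2 fold change of old against young TA on the vertical axis. Red and blue points are genes called higher and lower; genes with 0 reads in all 3 libraries of an age are not drawn, which leaves out Krt8, Gm15501 and Gm2606 of the 24 called. The points fan out at low levels, and the called genes run from low levels such as Emb to Car3 near the top.

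**Figure D2:**
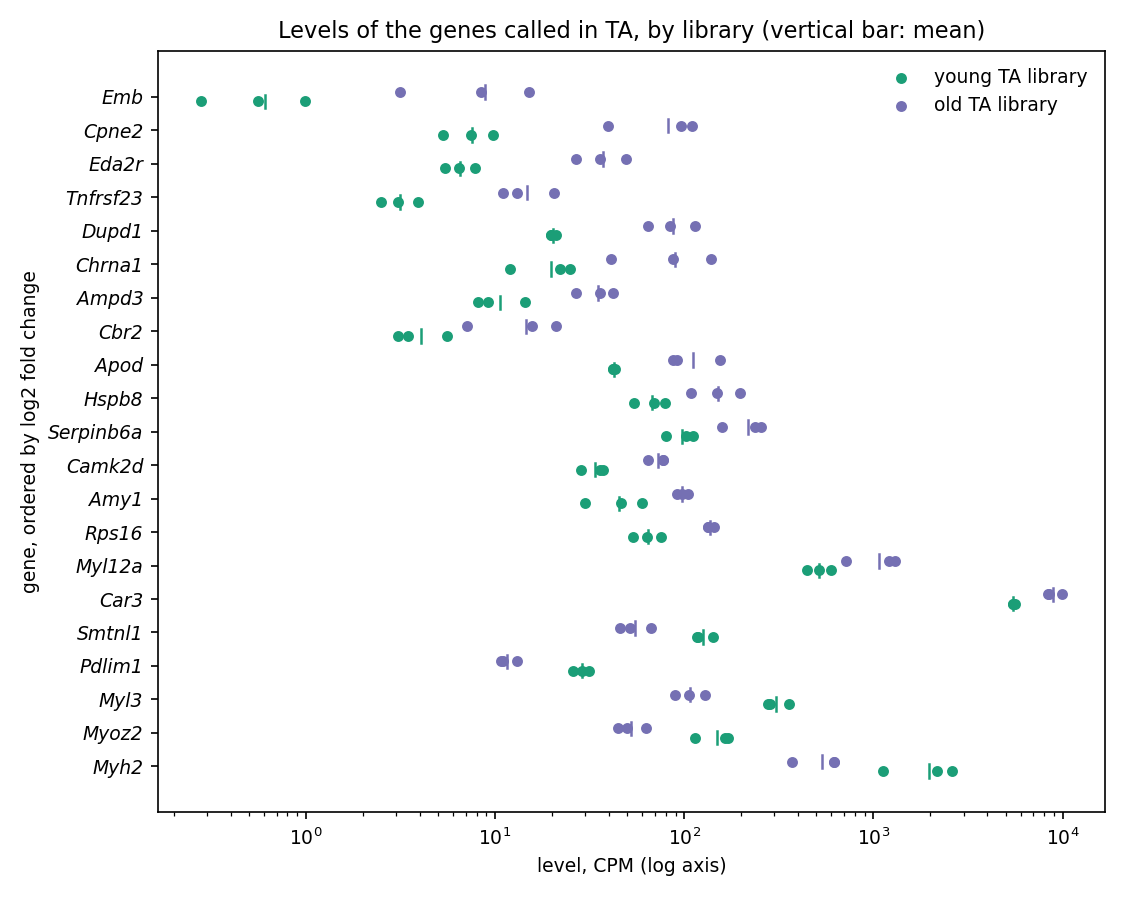
Levels in CPM (log axis) of 21 called genes in each TA library, with green points for young, purple points for old and a vertical bar for the mean of 3. Genes are ordered by log2 fold change, from Myh2 at the bottom to Emb at the top, and in no gene do the points of the 2 ages overlap.

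The acetylcholine receptor of muscle is a pentamer of 2 alpha subunits with beta and delta and either gamma (fetal) or epsilon (adult). The promoters of its alpha, gamma and epsilon genes and of the gene of myogenin are shown because the subunits are compared below and myogenin is known to act on E-boxes. Each line gives the 250 bases before the RefSeq start site on build GRCm38.p6, 5′ to 3′ on the gene's strand, with each E-box of the form CANNTG in capitals. The windows are chr2:73580339-73580588 on the minus strand for Chrna1, chr1:87205561-87205810 on the plus strand for Chrng, chr11:70619195-70619444 on the minus strand for Chrne and chr1:134289754-134290003 on the plus strand for Myog.
Chrna1: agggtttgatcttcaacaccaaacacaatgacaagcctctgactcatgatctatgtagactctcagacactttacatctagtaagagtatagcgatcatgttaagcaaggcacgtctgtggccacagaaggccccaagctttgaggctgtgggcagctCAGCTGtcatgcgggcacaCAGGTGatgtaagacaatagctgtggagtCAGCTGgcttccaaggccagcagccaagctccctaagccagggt
Chrng: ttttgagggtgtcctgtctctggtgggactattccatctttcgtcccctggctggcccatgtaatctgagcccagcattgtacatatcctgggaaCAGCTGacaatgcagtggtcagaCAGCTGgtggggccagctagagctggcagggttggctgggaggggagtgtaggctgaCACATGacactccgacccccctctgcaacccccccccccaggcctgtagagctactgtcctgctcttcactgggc
Chrne: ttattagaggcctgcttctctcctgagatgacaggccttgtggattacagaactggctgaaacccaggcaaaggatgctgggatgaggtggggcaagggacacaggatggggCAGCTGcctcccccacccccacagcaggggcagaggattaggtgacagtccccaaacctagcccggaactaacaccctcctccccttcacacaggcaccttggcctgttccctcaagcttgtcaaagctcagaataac
Myog: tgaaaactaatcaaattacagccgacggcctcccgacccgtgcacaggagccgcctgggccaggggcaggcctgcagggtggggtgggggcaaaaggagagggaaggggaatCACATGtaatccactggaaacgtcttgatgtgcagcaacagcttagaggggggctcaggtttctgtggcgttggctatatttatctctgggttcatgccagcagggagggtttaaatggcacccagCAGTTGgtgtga
Chrna1 and Chrng each hold 3 E-boxes, 2 of them CAGCTG, Chrne holds 1 CAGCTG, and Myog holds 2 that are neither CAGCTG nor CAGGTG. The 250 bases before each start were searched on both strands, where CAGCTG and CAGGTG are also counted as CANNTG. Of all 32851 RefSeq windows 66.2% hold CANNTG and 13.0% hold CAGCTG. Among the 21 windows of genes of the junction list, 66.7% hold CANNTG and 33.3% hold CAGCTG. A match is a description of the letters, not of binding.

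Chrna1, the alpha subunit that binds acetylcholine, rose in old TA. It lies on chromosome 2 (73563215 to 73580338; build GRCm38, the reference's). Its level was 22.1, 24.97 and 11.9 CPM in the young and 41.1, 87.7 and 138 CPM in the old libraries, and each old library was above each young one. The change was significant (log2 fold change 2.11 ± 0.32 (SE), adjusted p = 0.00376). The call stood without any 1 library but not in the fit on the 6 TA libraries alone (adjusted p = 0.194, edgeR) or with trends on GC content and length removed (adjusted p = 0.0646, edgeR). It was also lost with all 18 libraries by title (adjusted p = 0.192, edgeR).

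The other subunits did not pass the test. For the fetal gamma subunit, Chrng, the level was 0, 0.140 and 0 CPM in the young and 7.89, 9.62 and 14.04 CPM in the old libraries, with 1 read in all over the young ones (adjusted p = 0.0698). Every old library thus held several CPM of a message close to absent in young TA. The fit on the 6 TA libraries called it (adjusted p = 2.72e-05, edgeR). Chrnd, the delta subunit, had 2.79, 5.02 and 4.47 CPM in young TA and 9.47, 13.8 and 8.02 CPM in old TA with no overlap (adjusted p = 0.231), and Chrnb1, the beta subunit, had overlapping levels of 17.6, 16.5 and 10.4 against 17.4, 28.2 and 47.1 CPM (adjusted p = 0.204). The adult epsilon subunit, Chrne, had 16.5, 18.4 and 16.9 CPM in young TA and 15.00, 20.4 and 9.02 CPM in old TA, with overlap. In TPM, which allows genes of different length to be compared, Chrne made up 46.1%, 47.3% and 55.0% of the 5 subunits in the young and 31.6%, 23.02% and 8.98% in the old libraries, and Chrng 0%, 0.175% and 0% against 23.3%, 6.77% and 8.45%. The share of Chrne was thus lower, and that of Chrng higher, in every old library than in every young one. The Chrng shares rest on 10, 16 and 14 reads in the old libraries. Old replicate 1 had the lowest Chrng level of the old libraries in CPM but the highest in TPM (9.06, against 3.61 and 4.84), so the size of its share is uncertain.

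Of 17 measured genes of the acetylcholine receptor and neuromuscular junction, 1 rose (Chrna1) and 16 did not pass. In 4 of them (23.5%, against 7.19% of all genes) all old libraries were above all young ones, in 2 (11.8%, against 9.41%) all were below, and the median change was -0.10 against -0.03 over all genes. Musk, the kinase that receives the nerve's agrin signal through Lrp4, had 8.38, 10.2 and 9.45 CPM in young TA and 7.11, 27.6 and 20.1 CPM in old TA. Lrp4 had 51.1, 37.8 and 44.7 against 17.4, 42.7 and 38.1 CPM and Rapsn, which clusters the receptors, 46.9, 50.6 and 20.9 against 34.7, 48.7 and 44.1 CPM. All 3 overlapped between ages.

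Among 19 measured genes that respond to denervation, 2 rose (Ampd3 and Chrna1), and in 12 (63.2%, against 7.19% of all genes) the old libraries lay above the young ones without overlap, with a median change of 1.36 against -0.03 over all genes. The fit on the 6 TA libraries called 7 of the 18 it tested (against 1.16% of all genes called higher), all higher: Ampd3, Chrng, Krt18, Runx1, Hdac4, Gadd45a and Myog. The list was chosen with earlier results of these data known, so its direction is a description.

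Ampd3, an AMP deaminase, rose (110768206 to 110812405 of chromosome 7). Its level was 9.22, 8.09 and 14.4 CPM in the young and 26.8, 36.1 and 42.1 CPM in the old libraries, and the ages did not overlap (log2 fold change 1.79 ± 0.26 (SE), adjusted p = 0.000779). In TPM it made up 0.916%, 0.789% and 1.42% of the 3 AMP deaminases in young and 2.30%, 4.18% and 6.95% in old TA, while Ampd1, the main muscle form, held the bulk in all 6 libraries.

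Runx1, a transcription factor induced when muscle loses its nerve, had 0 reads in 2 young libraries: the level was 0, 0.419 and 0 CPM in the young and 6.32, 21.6 and 12.03 CPM in the old libraries. Gadd45a, a stress-induced gene of the atrophy response, had 5.87, 6.697 and 10.4 CPM in young TA and 33.9, 42.1 and 62.2 CPM in old TA, and Myog, myogenin, 2.79, 3.63 and 5.97 against 10.3, 27.05 and 23.1 CPM. In these genes each old library was above each young one. In the fit over all muscles they did not pass (adjusted p = 0.139, 0.317 and 0.597), and in the fit on the 6 TA libraries they did (adjusted p = 1.77e-05, 7.12e-07 and 0.000539, edgeR). Old soleus libraries of these genes were spread widely, with Runx1 at 1.56, 19.8 and 2.299 CPM in the 3 of them.

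Hdac4, a deacetylase that carries the inactivity signal to the myogenin gene, had 115, 133 and 111 CPM in young TA and 168, 207 and 202 CPM in old TA (log2 fold change 0.68 ± 0.19, adjusted p = 0.167). Sln, sarcolipin, an inhibitor of the calcium pump SERCA, had 10.3, 6.84 and 6.46 against 30.8, 39.7 and 179 CPM (adjusted p = 0.0698), with old replicate 3 far above the other two old libraries. Ankrd1, a stretch-responsive ankyrin repeat protein, had 49.7, 25.5 and 64.1 against 178, 365 and 566 CPM (adjusted p = 0.151). None of the 3 was called, though no old library fell to the level of a young one.

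The keratins 8 and 18 pair into one filament. Krt8 rose from 0 reads in all 3 young libraries to 19 reads over the old ones (1.58, 4.81 and 9.02 CPM), at least 20.6-fold higher when the young group is set at a floor of 3 reads over the group (adjusted p = 0.0433). Krt18 had 0.279, 1.53 and 1.49 CPM in young TA and 33.2, 26.4 and 78.2 CPM in old TA, did not pass (adjusted p = 0.131), and passed in the fit on the 6 TA libraries (adjusted p = 0.000906, edgeR). With so few reads Krt8 lost its call when any 1 of 3 young libraries was left out, and it was not tested without old replicate 2 or 3.

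**Figure D3:**
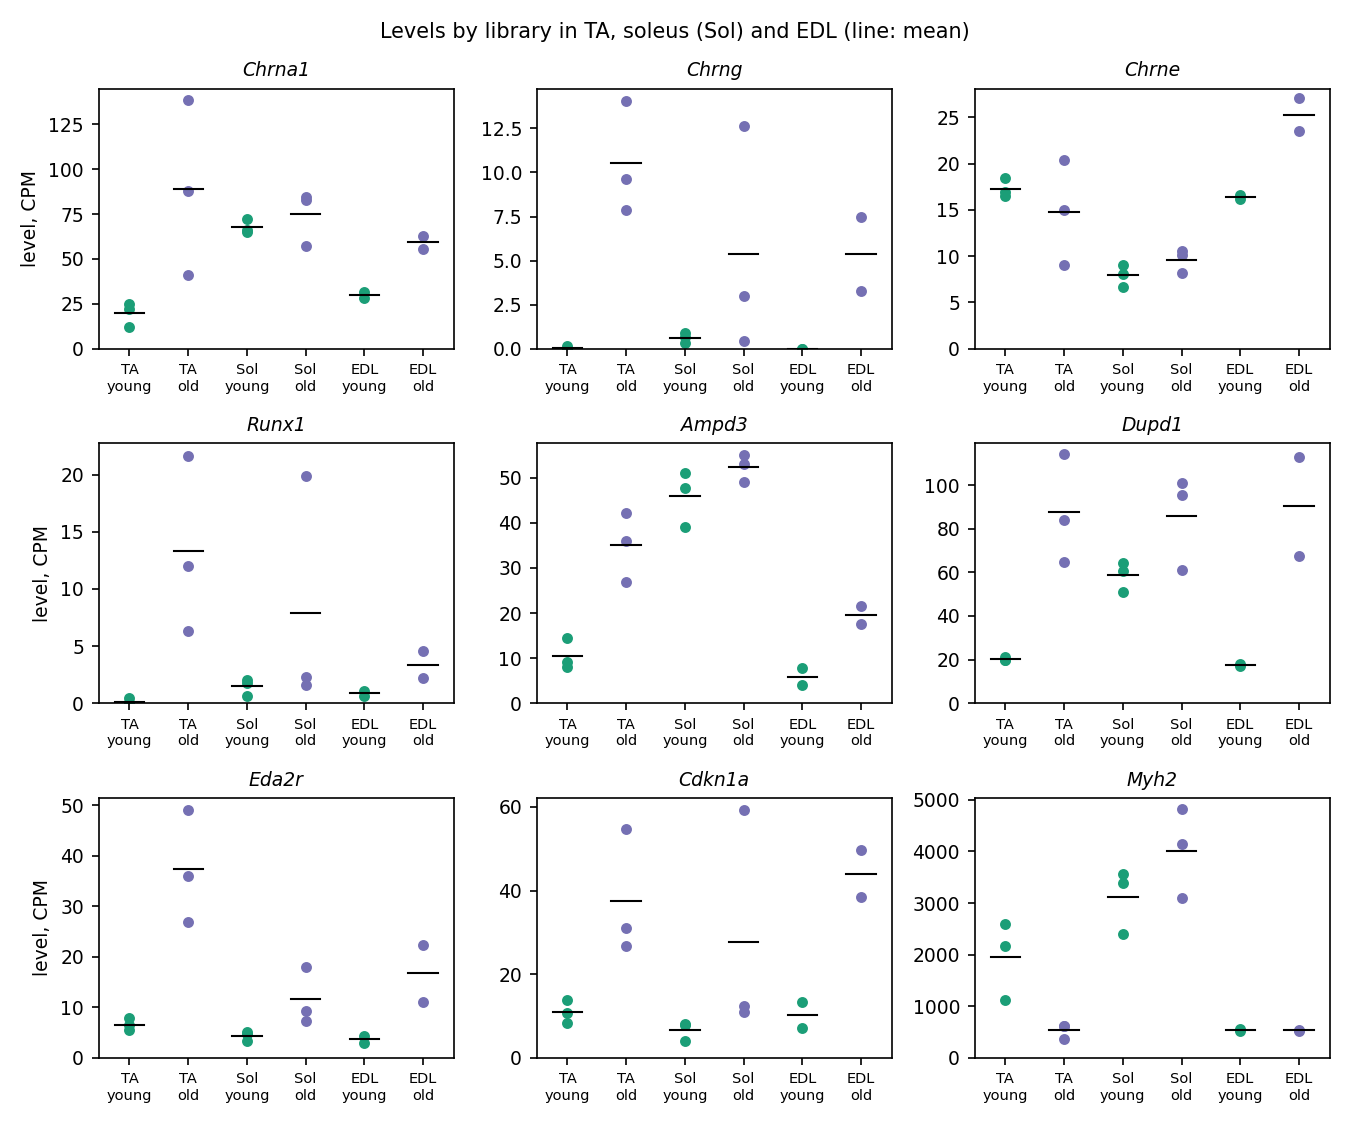
Levels in CPM of 9 genes in each library of TA, soleus (Sol) and EDL by age; green points are young, purple points old, and black lines group means (3 libraries a group, 2 in EDL). In TA the old points of Chrna1, Chrng, Runx1, Ampd3, Dupd1, Eda2r and Cdkn1a lie above the young ones, those of Myh2 lie below, and those of Chrne overlap.

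Dupd1, a dual-specificity phosphatase made in muscle (also named Dusp29), had the smallest p in TA and rose. Its level was 19.8, 21.1 and 19.9 CPM in the young and 64.7, 114 and 84.2 CPM in the old libraries, so that the young libraries lay in a narrow range well under the old ones (log2 fold change 2.12 ± 0.25 (SE), adjusted p = 4.75e-05; 21676537 to 21714576 of chromosome 14). Among 19 measured dual-specificity phosphatases it was the 1 called. Dusp26 had 79.1, 67.2 and 57.7 CPM in young TA and 27.6, 40.3 and 46.1 CPM in old TA (adjusted p = 0.159; adjusted p = 0.0200 in the fit on the 6 TA libraries, edgeR), with all old libraries lower. The median change of these phosphatases was -0.32.

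Eda2r, the receptor of ectodysplasin A2 and a p53-responsive gene, rose. Its level was 7.82, 6.42 and 5.47 CPM in the young and 26.8, 36.1 and 49.1 CPM in the old libraries with no overlap (log2 fold change 2.47 ± 0.36 (SE), adjusted p = 0.000779; 97333840 to 97377216 of chromosome X). Tnfrsf23, a decoy receptor for the death ligand TRAIL, rose too. Its level was 3.07, 3.91 and 2.49 CPM in the young and 11.1, 20.4 and 13.03 CPM in the old libraries, at low levels and without overlap (log2 fold change 2.18 ± 0.41 (SE), adjusted p = 0.0107). Of 13 measured receptors of the tumour necrosis factor family these 2 rose and 11 did not pass, with a median change of 0.01. Tnfrsf12a, the receptor of TWEAK, had 4.47, 11.3 and 4.47 against 12.6, 25.2 and 17.04 CPM (adjusted p = 0.525).

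Among 20 measured p53 targets 1 rose (Eda2r) and 19 did not pass. In 6 (30%, against 7.19% of all genes) the old libraries lay above the young ones without overlap. In 1 (5%, against 9.41%) they lay below, and the median change was 0.12. Cdkn1a, the cell cycle inhibitor p21, had 8.38, 10.6 and 13.9 CPM in young TA and 26.8, 54.7 and 31.1 CPM in old TA without overlap; it did not pass (adjusted p = 0.467) and was called in the fit on the 6 TA libraries (adjusted p = 0.000169, edgeR). Mdm2, the ligase that degrades p53, had 34.6, 34.5 and 40.3 against 44.2, 48.7 and 64.2 CPM (adjusted p = 0.484). Bbc3 had 0 reads in all 6 libraries.

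Hspb8, a small heat shock protein that works with Bag3 in the clearance of damaged Z-disc proteins, rose. Its level was 69.3, 79.4 and 54.2 CPM in the young and 108, 148 and 196 CPM in the old libraries, without overlap (log2 fold change 1.14 ± 0.21 (SE), adjusted p = 0.00864). Bag3 itself had overlapping levels of 99.2, 130.0 and 134 and 105, 96.8 and 94.2 CPM. Hspb7, another small heat shock protein of the sarcomere, had lower levels of 391, 574 and 602 CPM in old against 981, 969 and 899 CPM in young TA (adjusted p = 0.106; adjusted p = 0.000666 in the fit on the 6 TA libraries, edgeR). Of 21 measured heat shock genes and chaperones 1 rose and 20 did not pass.

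Myh2, the heavy chain of IIa fibres, fell in old TA. Its level was 1129, 2159.9 and 2599 CPM in the young and 619.7, 371 and 622 CPM in the old libraries, with each old library under each young one (log2 fold change -1.87 ± 0.27 (SE), adjusted p = 0.00213; 67171027 to 67197517 of chromosome 11). Of the TPM of adult myosins Myh2 held 5.41%, 9.74% and 14.8% in young and 2.92%, 1.87% and 3.24% in old TA. The young libraries differed among themselves by more than the old ones did, and the call was lost in the fit on the 6 TA libraries (adjusted p = 0.197, edgeR). Myh4 and Myh1 overlapped between ages, at 14744, 15185 and 9879 against 15475, 16229 and 13543 CPM and 5759, 5395 and 5406 against 5462, 3359 and 5380.4 CPM. Myosins share sequence, so reads split between them are uncertain. Of 14 measured fast-fibre genes Myh2 was the 1 that fell, with 13 not passing and a median change of -0.04.

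Myl3, the essential light chain of slow myosin, and Myoz2, calsarcin 1 of the slow-fibre Z-disc, fell. For Myl3 the level was 284, 278 and 359 CPM in the young and 106, 89.5 and 128 CPM in the old libraries (log2 fold change -1.51 ± 0.22 (SE), adjusted p = 0.000779; 110741861 to 110769798 of chromosome 9). For Myoz2 the level was 113, 164 and 171 CPM in the young and 49.7, 44.5 and 63.2 CPM in the old libraries (log2 fold change -1.52 ± 0.21 (SE), adjusted p = 0.000534; 123006206 to 123035015 of chromosome 3). Neither gene overlapped between ages, and the Myl3 call was lost with trends on GC content and length removed (adjusted p = 0.0719, edgeR). These were 2 of 14 measured slow-fibre genes, of which 12 did not pass, with a median change of -0.40 (-0.37 with genes at 0 reads in an age set at their bound). The slow troponins Tnni1, Tnnc1 and Tnnt1 stood at 5.53 to 18.05 CPM in every TA library and overlapped between ages.

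Of 21 measured Z-disc and PDZ-LIM genes 3 fell (Myoz2, Smtnl1 and Pdlim1) and 18 did not pass. In 9 (42.9%, against 9.41% of all genes) the old libraries lay below the young ones without overlap, in 1 (Ankrd1) above, and the median change was -0.29. The fit on the 6 TA libraries called 8 of 21, all lower (against 0.817% of all genes called lower). Smtnl1, a smoothelin-like protein that restrains myosin phosphatase, had 116, 142 and 119 CPM in young TA and 45.8, 51.7 and 67.2 CPM in old TA (log2 fold change -1.21 ± 0.20 (SE), adjusted p = 0.00376). Pdlim1, which ties alpha-actinin to kinases, had 25.98, 31.4 and 28.8 against 11.1, 10.8 and 13.03 CPM (log2 fold change -1.32 ± 0.26 (SE), adjusted p = 0.0145). Both were clear of overlap, with Pdlim1 losing its call when the libraries were thinned to 1 depth (adjusted p = 0.164, edgeR).

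Other members were lower in every old library without passing. Csrp3, muscle LIM protein, had 95.5, 58.5 and 111 CPM in young TA and 6.32, 7.81 and 22.1 CPM in old TA (adjusted p = 0.0812). Actn2, alpha-actinin of the Z-disc, had 1421, 1603 and 1601 against 940.3, 752 and 1099 CPM (adjusted p = 0.139), and Fhl1, a LIM protein of the sarcomere, 4899, 4067 and 5589 against 2687, 1818 and 3696 CPM (adjusted p = 0.0812). Csrp3 and Actn2 were called in the fit on the 6 TA libraries (adjusted p = 0.0290 and 0.00376, edgeR), Fhl1 was not (adjusted p = 0.214).

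Myl12a, a regulatory light chain of non-muscle myosin, rose. Its level was 447, 516 and 594 CPM in the young and 714, 1209 and 1296 CPM in the old libraries (log2 fold change 1.05 ± 0.20 (SE), adjusted p = 0.0131), with no overlap, and the call was lost in the fit on the 6 TA libraries (adjusted p = 0.0514, edgeR). Camk2d, a calcium and calmodulin dependent kinase, rose from 35.8, 37.2 and 28.3 to 64.7, 76.9 and 77.2 CPM (log2 fold change 1.10 ± 0.20 (SE), adjusted p = 0.00734). With an offset for average transcript length it was far from passing (adjusted p = 0.561, edgeR). Cacng1, the gamma subunit of the muscle calcium channel, had 171, 193 and 130.3 against 229.7, 359 and 337 CPM (adjusted p = 0.0824); it is 1 of 18 measured genes of calcium release and uptake, of which 0 passed (edgeR, with 3 at an unadjusted p under 0.05, 2 called by DESeq2 and 1 by limma-voom).

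No gene of the mitochondrial lists passed the test. Of 69 measured nuclear genes of oxidative phosphorylation 0 passed (edgeR, with 5 at an unadjusted p under 0.05, 0 called by DESeq2 and 0 by limma-voom). In 24 (34.8%, against 9.41% of all genes) the old libraries lay below the young ones without overlap. In 0 (against 7.19%) they lay above, and the median change was -0.13. Atp5g1, a subunit of the ring of ATP synthase, had 857, 878 and 643 CPM in young TA and 553, 505 and 550.4 CPM in old TA (adjusted p = 0.275) and was the 1 gene of this list called in the fit on the 6 TA libraries (adjusted p = 0.0186, edgeR). The 13 mitochondrially encoded genes lay the other way, with a median of 0.35, 6 (46.2%, against 7.19% of all genes) above without overlap and 0 passing (edgeR, with 0 at an unadjusted p under 0.05, 0 called by DESeq2 and 0 by limma-voom). Their summed level was 302342 to 338046 CPM in old and 226597 to 307979 CPM in young TA, which overlap.

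Of 29 measured genes of fatty acid uptake and oxidation 0 passed (edgeR, with 10 at an unadjusted p under 0.05, 1 called by DESeq2 and 0 by limma-voom). In 15 (51.7%, against 9.41% of all genes) all old libraries were below all young ones. In 2 (6.90%, against 7.19%) they were above, and the median change was -0.31. Fabp3, the fatty acid carrier of oxidative fibres, had 715, 557 and 889.5 against 477, 480.2 and 457 CPM (adjusted p = 0.207), and Acadvl, the first enzyme of long-chain oxidation, 801, 831 and 705 against 499.7, 530.1 and 635 CPM (adjusted p = 0.373). Ucp3, an uncoupling protein that fasting induces, went against them with 30.2, 35.6 and 40.3 CPM in young TA and 107, 63.1 and 74.2 CPM in old TA (adjusted p = 0.176). All 3 were called in the fit on the 6 TA libraries (adjusted p = 0.0249, 0.0406 and 0.000556, edgeR).

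Among 24 measured genes of glycogen and glycolysis 0 passed (edgeR, with 1 at an unadjusted p under 0.05, 1 called by DESeq2 and 0 by limma-voom). Ldhb, the lactate dehydrogenase of oxidative fibres, had 453, 644 and 510.1 CPM in young TA and 297, 313 and 319.8 CPM in old TA without overlap (adjusted p = 0.0698; adjusted p = 0.000700 in the fit on the 6 TA libraries, edgeR). In TPM its share of Ldha and Ldhb together was 14.6%, 21.6% and 21.8% in young and 11.6%, 11.3% and 12.1% in old TA. Ckmt2, the mitochondrial creatine kinase, had 5250.3, 4964 and 5930.2 against 3829, 3685 and 4057 CPM (adjusted p = 0.278). Of 14 measured genes of adenine nucleotide and creatine metabolism Ampd3 was the 1 that rose, and 4 others (28.6%, against 9.41% of all genes) lay lower in every old library.

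Car3, carbonic anhydrase III, one of the most abundant messages of TA, rose. Its level was 5594, 5444 and 5454 CPM in the young and 8345, 8465 and 9899.6 CPM in the old libraries, with a narrow spread in each age (log2 fold change 0.70 ± 0.15 (SE), adjusted p = 0.0445). The call is near the threshold: it was lost without any 1 of the 6 libraries, where the adjusted p ran from 0.0913 to 0.257 (edgeR). Car3 is also the 1 called member of the adipocyte list, of which 10 genes were measured and 9 did not pass. The summed level of that list, most of it Car3, was 8634 to 10174 CPM in old and 5764 to 5909 CPM in young TA. Of its other members, Adipoq had 0.838, 0.419 and 0.994 CPM in young against 0, 4.81 and 0 CPM in old TA. Plin1 had 0 reads in all 6 libraries.

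Of 72 measured cytosolic ribosomal protein genes 1 rose (Rps16) and 71 did not pass. In 29 (40.3%, against 7.19% of all genes) the old libraries lay above the young ones without overlap, in 0 below, and the median change was 0.27. Their summed level was 14045 to 14664 CPM in old and 11257 to 12713 CPM in young TA, without overlap. The fit on the 6 TA libraries called 12 of 70, all higher (against 1.16% of all genes called higher). Rps16 had 75.4, 63.6 and 53.7 CPM in young TA and 144, 133 and 134 CPM in old TA (log2 fold change 1.09 ± 0.23 (SE), adjusted p = 0.0445). It lost its call without any 1 of the 6 libraries, and reads of near-identical ribosomal pseudogenes make its level uncertain. Rpl3, a protein close to the peptidyl transferase centre, had 60.1, 69.3 and 71.1 against 105, 131 and 142 CPM (adjusted p = 0.0698; adjusted p = 0.000579 in the fit on the 6 TA libraries, edgeR).

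Of 31 measured proteasome genes 0 passed (edgeR, with 4 at an unadjusted p under 0.05, 0 called by DESeq2 and 0 by limma-voom). In 7 (22.6%, against 7.19% of all genes) the old libraries lay above without overlap and in 0 below, with a median of 0.13. Of 19 measured atrophy genes 0 passed (edgeR, with 2 at an unadjusted p under 0.05, 0 called by DESeq2 and 0 by limma-voom). The ubiquitin ligases Fbxo32 and Trim63 overlapped between ages, at 100.3, 241 and 138 against 250.3, 185 and 169 CPM and 107, 169 and 105 against 172, 127 and 149 CPM. Of 25 measured genes of autophagy and lysosome 0 passed (edgeR, with 5 at an unadjusted p under 0.05, 2 called by DESeq2 and 0 by limma-voom). Without overlap 6 (24%, against 7.19% of all genes) lay above and 1 (4%, against 9.41%) below. Of 10 measured genes of polyamine metabolism 0 passed (edgeR, with 2 at an unadjusted p under 0.05, 1 called by DESeq2 and 0 by limma-voom). Odc1, the rate-limiting enzyme of polyamine synthesis, had 12.6, 10.6 and 7.46 CPM in young TA and 17.4, 23.4 and 30.1 CPM in old TA (adjusted p = 0.131), and Sms, spermine synthase, 88.8, 80.8 and 67.1 against 114, 118 and 118 CPM (adjusted p = 0.400). Both lay above in every old library and were called in the fit on the 6 TA libraries (adjusted p = 0.0264 and 0.0365, edgeR).

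**Figure D4:**
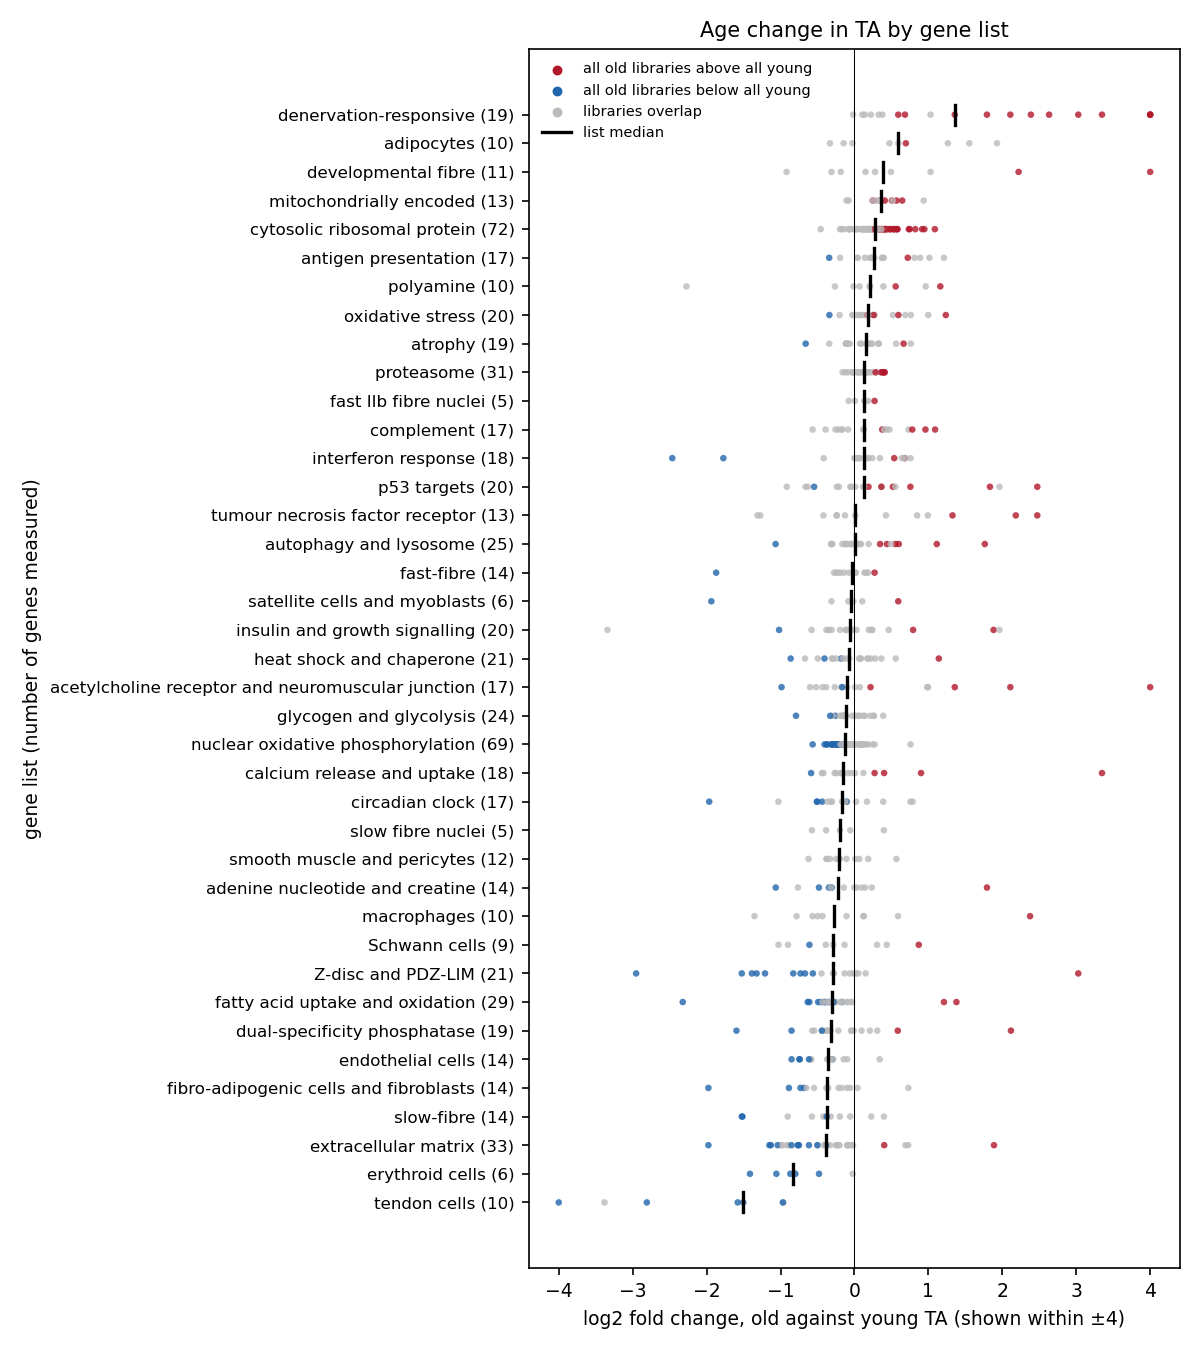
Log2 fold changes of old against young TA for the genes of each list with at least 5 measured genes, with values beyond 4 drawn at the edge; red and blue points are genes whose old libraries all lie above or below the young ones, grey points overlap, and black bars are list medians with genes at 0 reads in an age set at their bound (their points are not drawn). Denervation-responsive genes sit at the top with a median of 1.36 and tendon markers at the bottom with -1.50.

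Of 33 measured extracellular matrix genes 0 passed (edgeR, with 9 at an unadjusted p under 0.05, 1 called by DESeq2 and 0 by limma-voom). In 10 (30.3%, against 9.41%) the old libraries lay below without overlap and in 2 above, and the median change was -0.39. Col1a2, a chain of collagen I, had 32.96, 33.2 and 48.2 CPM in young TA and 15.00, 16.8 and 20.1 CPM in old TA (adjusted p = 0.0698; adjusted p = 0.0101 in the fit on the 6 TA libraries, edgeR). Gsn, gelsolin, which severs actin and is abundant in fibroblasts, had 292, 387 and 204 against 172, 142 and 166 CPM (adjusted p = 0.0511).

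Tendon markers lay lower beside the matrix list. Of 10 measured 0 passed (edgeR, with 6 at an unadjusted p under 0.05, 1 called by DESeq2 and 0 by limma-voom), and 10 of 10 had a negative change. Of these 5 (50%, against 9.41% of all genes) lay below without overlap. The median was -3.09, or -1.50 with genes at 0 reads in an age set at their bound. Their summed level was 33.7 to 42.1 CPM in old and 69.3 to 125 CPM in young TA. Fmod, fibromodulin, which shapes collagen fibrils in tendon, had 29.1, 36.7 and 37.3 CPM in young TA and 14.2, 9.62 and 13.03 CPM in old TA (adjusted p = 0.106; adjusted p = 0.000700 in the fit on the 6 TA libraries, edgeR). Mkx, Wif1 and Cilp2 had 0 reads in all 3 old libraries, which were shallower than the young ones. Over all genes tested, 121 had 0 reads in all old libraries and 26 in all young ones. For markers of fibro-adipogenic cells and fibroblasts the sum was 695 to 713 CPM in old and 891 to 996 CPM in young TA, with 4 of 14 (28.6%, against 9.41% of all genes) below without overlap and 0 passing (edgeR, with 3 at an unadjusted p under 0.05, 1 called by DESeq2 and 0 by limma-voom). The part of tendon and fibroblast content in the matrix values was not tested.

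For endothelial markers the summed level was 390.0 to 450.0 CPM in old and 440.4 to 610.1 CPM in young TA, with 5 of 14 (35.7%, against 9.41% of all genes) below without overlap and 0 passing (edgeR, with 1 at an unadjusted p under 0.05, 0 called by DESeq2 and 0 by limma-voom). For erythroid markers, haemoglobins above all, it was 234 to 416 CPM in old and 472 to 589 CPM in young TA, with 5 of 6 (83.3%, against 9.41%) below and 0 passing (edgeR, with 4 at an unadjusted p under 0.05, 0 called by DESeq2 and 0 by limma-voom). Both sums thus lay lower in old TA, the endothelial one with overlap. For macrophage markers it was 33.1 to 41.8 CPM in old and 23.4 to 43.7 CPM in young TA, and for Schwann cell markers 64.2 to 127 CPM in old and 112 to 147 CPM in young TA, with overlap in both and 0 genes passing (edgeR, with 1 at an unadjusted p under 0.05, 0 called by DESeq2 and 0 by limma-voom in the first; edgeR, with 1 at an unadjusted p under 0.05, 0 called by DESeq2 and 0 by limma-voom in the second). Of the markers of T and NK cells (11) and of neutrophils (7) none reached the count minimum, and Cd8a, Trbc2, Ly6g and Camp had 0 reads in all 6 libraries.

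Markers of B and plasma cells were few. Ighm, the heavy chain of immunoglobulin M, had 8.94, 18.8 and 26.8 CPM in young TA and 138, 140.0 and 48.1 CPM in old TA without overlap (adjusted p = 0.0943), while Igkc, the kappa light chain, had 0.559, 0.279 and 0.994 against 86.1, 7.81 and 1.002 CPM, high in old replicate 1 alone. These were the 2 of 9 listed genes with enough reads. Of 18 interferon response genes 0 passed (edgeR, with 2 at an unadjusted p under 0.05, 0 called by DESeq2 and 0 by limma-voom), of 17 complement genes 0 (edgeR, with 2 at an unadjusted p under 0.05, 0 called by DESeq2 and 0 by limma-voom) and of 17 antigen presentation genes 0 (edgeR, with 3 at an unadjusted p under 0.05, 0 called by DESeq2 and 0 by limma-voom). Without overlap 4 complement genes (23.5%, against 7.19% of all genes) lay above and 0 (against 9.41%) below. Their summed level was 193 to 240 CPM in old and 159 to 186 CPM in young TA. For interferon genes it was 92.2 to 114 and 85.5 to 91.9 CPM, with 2 genes (11.1%) above and 2 (11.1%) below. The antigen presentation sums overlapped, at 412 to 844 CPM in old and 343 to 447 CPM in young TA. B2m, the light chain of class I molecules, had 157, 169.9 and 229 against 433, 245 and 235 CPM (adjusted p = 0.378), again highest in old replicate 1.

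The remaining called genes belong to no single group. Serpinb6a, an intracellular inhibitor of serine proteases, rose from 102, 111 and 80.5 to 158, 236 and 255 CPM (log2 fold change 1.14 ± 0.20 (SE), adjusted p = 0.00734). Apod, a lipid-binding lipocalin, rose from 43.02, 42.3 and 42.3 to 86.8, 154 and 91.2 CPM (log2 fold change 1.39 ± 0.25 (SE), adjusted p = 0.00864), with young libraries almost level. Cpne2, a copine that binds membranes in the presence of calcium, rose from 9.78, 5.301 and 7.46 to 39.5, 96.2 and 110.3 CPM (log2 fold change 3.48 ± 0.56 (SE), adjusted p = 0.0222). Emb, embigin, a partner of lactate transporters, rose from 0.559, 0.279 and 0.994 to 3.16, 8.41 and 15.04 CPM (log2 fold change 4.06 ± 0.73 (SE), adjusted p = 0.00734), a gene with few reads in every library.

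Cbr2, a carbonyl reductase, rose from 3.07, 5.58 and 3.48 to 7.11, 15.6 and 21.1 CPM (log2 fold change 1.75 ± 0.38 (SE), adjusted p = 0.0445), and Amy1, an amylase, rose from 59.8, 46.6 and 29.8 to 91.6, 105 and 97.2 CPM (log2 fold change 1.09 ± 0.22 (SE), adjusted p = 0.0241), though amylase genes share reads and the split between them is uncertain. The 2 remaining genes that fell, Gm15501 and Gm2606, are annotated as processed pseudogenes, so their reads may belong to other genes. They had 54 and 63 reads over the young libraries and 0 reads over the old ones, at least 5.54-fold and 6.47-fold lower with the old group at a floor of 3 reads (adjusted p = 0.0378 and 0.0445).

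Of 17 measured genes of the circadian clock 0 passed (edgeR, with 4 at an unadjusted p under 0.05, 0 called by DESeq2 and 0 by limma-voom). Without overlap 5 (29.4%, against 9.41% of all genes) lay below and 0 above (against 7.19%), with a median of -0.17. Per1, a repressor of the clock that light and hormones induce, had 8.38, 9.49 and 5.47 CPM in young TA and 3.16, 1.202 and 2.005 CPM in old TA (adjusted p = 0.192). The labels do not state the time of day of sampling.

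Depth was checked because every old TA library was shallower than every young one. Over all genes, 121 had 0 reads in all old libraries and 26 in all young ones, and of these 120 and 26 stood under 10 CPM on average. With each TA library thinned to 1151977 reads in genes, about the shallowest, 5.77% of genes in place of 7.19% lay above without overlap and 8.39% in place of 9.41% below. The thinned levels behind these shares were scaled to library size without TMM, so the shares differ in scaling as well as in depth. The test on the thinned libraries, which did use TMM, called 19 of 10026 genes, 14 higher and 5 lower, including 17 of the 24. The 7 lost were Emb, Cbr2, Rps16, Krt8, Pdlim1, Gm2606 and Gm15501, most of them at low levels. Changes also went with base composition: over genes, GC content and log2 fold change had a Spearman rho of -0.22, and genes are not independent replicates. Median GC content was 49.7% in genes called higher, 53.7% in genes called lower and 50.1% in all genes.

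The libraries of old TA differed from each other about as much as from young ones. The median absolute difference in log2 level over genes was 0.267 to 0.359 between pairs of young libraries, 0.404 to 0.466 between pairs of old ones and 0.387 to 0.487 between ages. The old libraries were all shallower, and the part of depth in these differences was not tested.

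**Figure D5:**
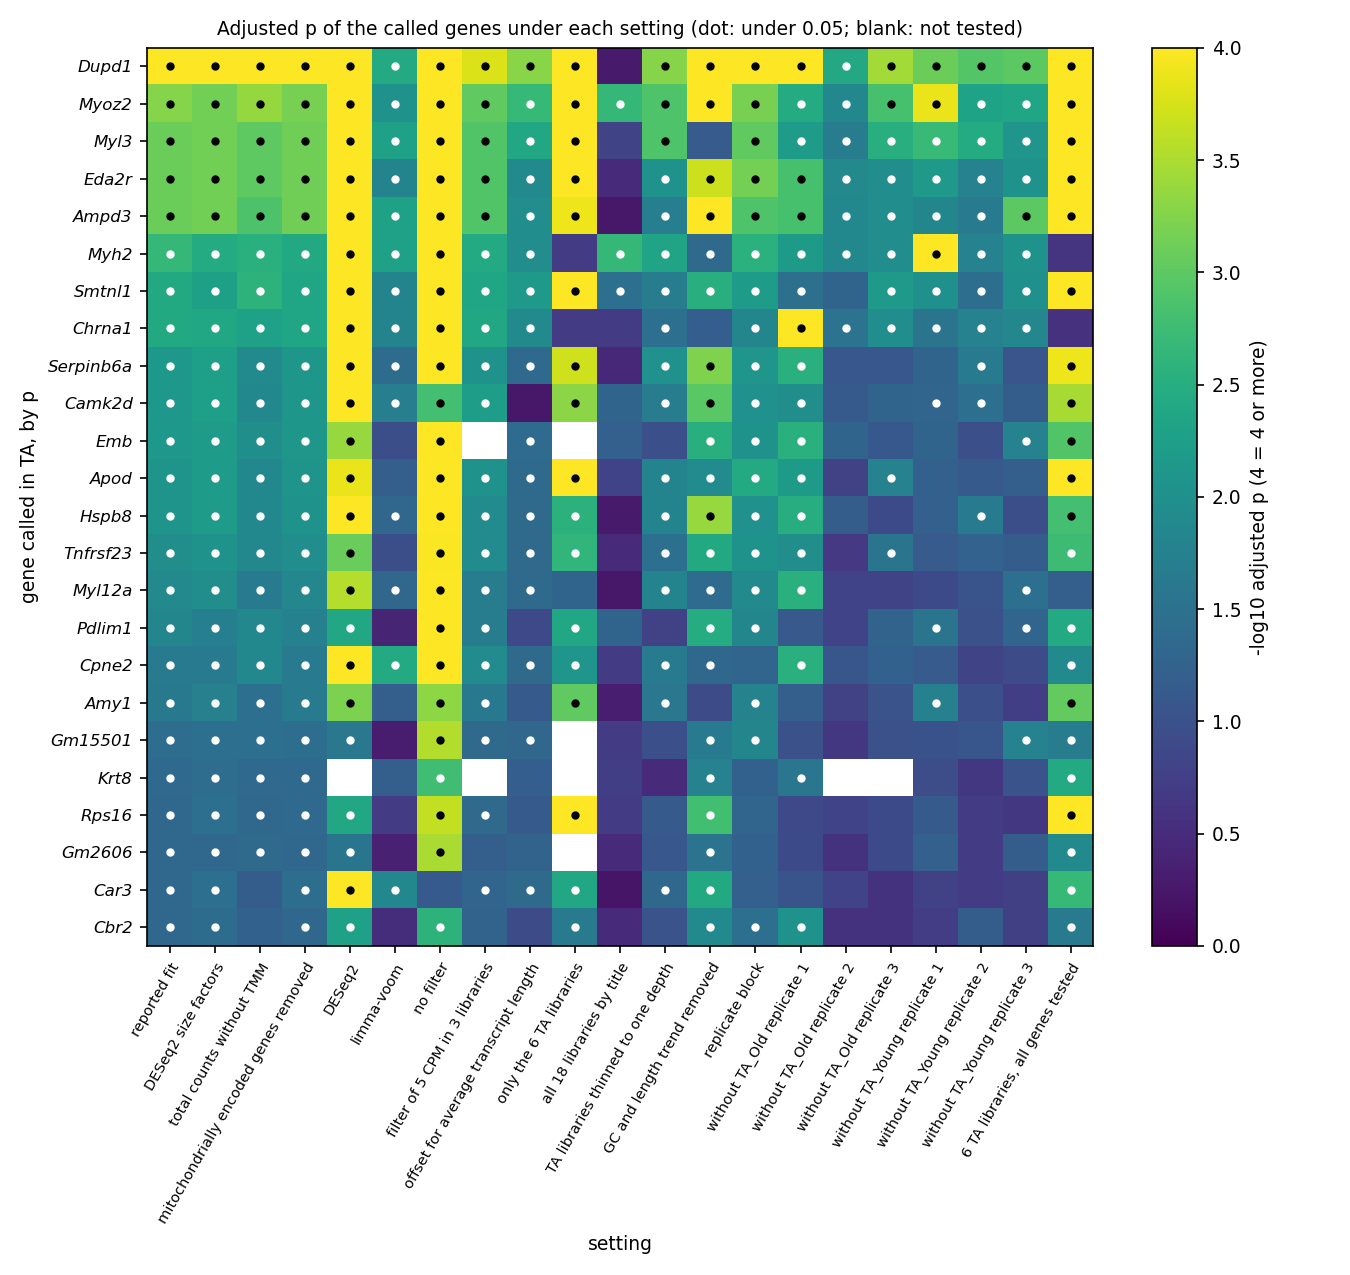
Each row is 1 of the 24 called genes, ordered by p, and each column a setting of the analysis; colour gives the -log10 of the adjusted p (4 or more at the top of the scale), dots mark an adjusted p under 0.05 and blank cells genes not tested. Dupd1, Myoz2, Eda2r and Ampd3 carry dots in nearly all columns, and the column of all 18 libraries by title has dots for Myoz2, Myh2 and Smtnl1 only.

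Whether a change in TA differed from that in another muscle was tested as the difference of the 2 age changes in the same fit. The tests against soleus and EDL share the TA libraries. Against soleus 14 genes differed (0.129% of the genes tested), 1 higher and 13 lower in TA. Against EDL, with 2 libraries per age, 29 differed (0.267%), 4 higher and 25 lower. With mitochondrially encoded genes removed the split against soleus was 3 higher and 13 lower, and with DESeq2 size factors the split against EDL was 8 higher and 25 lower.

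Of the genes called in TA 3 differed from soleus. Dupd1 was the 1 gene with a larger rise in TA than in soleus: its change was 2.12 in TA and 0.54 in soleus, a difference of 1.58 ± 0.33 (adjusted p = 0.0419). Young soleus, at 60.8, 64.4 and 51.1 CPM, already stood above young TA. The Dupd1 difference was lost without old replicate 2 or 3 or any 1 young library of TA, where its adjusted p ran from 0.0873 to 0.188 (edgeR). It was also lost with TA thinned to 1 depth (adjusted p = 0.0840), without TMM scaling (0.0608), with the 5 CPM filter (0.0584), the transcript length offset (0.0693), the replicate block (0.0537), the replicate block within age (0.0912), limma-voom (0.199) and all 18 libraries (0.668). Myh2 changed by -1.87 in TA and 0.37 in soleus (difference -2.24 ± 0.37, adjusted p = 0.0109), a difference lost with trends on GC content and length removed (adjusted p = 0.154, edgeR) and with only the groups compared (adjusted p = 0.0586, edgeR). Smtnl1 changed by -1.21 and 0.53 (difference -1.74 ± 0.27, adjusted p = 0.00181).

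Of 10 measured tendon markers 4 differed between TA and soleus (Fmod, Comp, Thbs4 and Angptl7), of 14 markers of fibro-adipogenic cells and fibroblasts 2 (Gsn and Serpinf1), and of 33 extracellular matrix genes 0, against 0.129% of all genes. Fmod had the smallest p, with -1.50 in TA and 2.99 in soleus (difference -4.49 ± 0.46, adjusted p = 5.15e-05). Prelp, which binds collagen, and Thbs4, a thrombospondin of tendon, went the same way, with differences of -2.50 and -2.11. Comp, a cartilage and tendon matrix protein, had 4.31, 3.45 and 5.38 CPM in young soleus and 30.3, 27.2 and 31.03 CPM in old soleus, against 0.838, 3.07 and 5.47 CPM in young TA and 1 read in all over old TA (adjusted p = 0.00354 for the difference). The Comp call was lost without old replicate 2 of TA (adjusted p = 0.0579, edgeR) and with limma-voom (adjusted p = 0.266), and that of Prelp with limma-voom (adjusted p = 0.0621). With all 18 libraries Thbs4 lost its call (adjusted p = 0.0722, edgeR). Gsn, Aebp1, Sbk2 and Pcx, the carboxylase of pyruvate, had differences of -1.59, -1.94, -2.10 and -1.91. The Sbk2 and Fmod calls stood in every setting run. The Gsn call was lost with trends on GC content and length removed (adjusted p = 0.0987, edgeR) and with all 18 libraries (adjusted p = 0.178, edgeR). The Pcx call was lost with limma-voom (adjusted p = 0.191), with all 18 libraries (0.0640, edgeR) and without old replicate 1, old replicate 2 or young replicate 2 (0.0644, 0.0633 and 0.104, edgeR). The Aebp1 call was lost without the same libraries (adjusted p = 0.0531, 0.0633 and 0.128, edgeR), with TA thinned to 1 depth (0.0547), the transcript length offset (0.0658), the GC and length trends removed (0.0570), all 18 libraries (0.178) and limma-voom (0.191).

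Against EDL, 7 of 14 measured slow-fibre genes differed, against 0.267% of all genes. Myl3 changed by -1.51 in TA and 2.52 in EDL (difference -4.04 ± 0.36, adjusted p = 2.20e-07). The slow troponins Tnni1, Tnnc1 and Tnnt1 and the slow tropomyosin Tpm3 had differences of -3.79, -2.71, -2.37 and -2.07. Their changes were 3.59, 2.65, 2.77 and 1.70 in EDL, and none was called in TA. Myoz2 and Pdlim1, which fell in TA, differed by -1.85 and -1.78, and Hspb7 and Fabp3 by -2.11 and -1.46. The Myl3 and Tpm3 calls stood in every setting run. Those of Tnni1, Tnnc1 and Tnnt1 were lost with limma-voom (adjusted p = 0.0960 for each) and with trends on GC content and length removed (0.0597, 0.0946 and 0.160, edgeR). The Myoz2 call was lost with limma-voom (adjusted p = 0.0945) and that of Hspb7 with all 18 libraries (0.722, edgeR). The Pdlim1 call was lost with TA thinned to 1 depth (adjusted p = 0.0708), the transcript length offset (0.170, with a difference of -1.17), limma-voom (0.107), all 18 libraries (0.0646) and without any 1 old library or young replicate 2 (0.0509 to 0.0922, edgeR). The Fabp3 call was lost with limma-voom (adjusted p = 0.0960), the GC and length trends removed (0.0946), all 18 libraries (0.143) and without any 1 old library or young replicate 3 (0.0531 to 0.0580, edgeR). With trends on GC content and length removed 9 genes differed in place of 29, and 5 of the 29 were among them.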

How the data were processed

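Each library was deposited as a transcript table holding a read number, a TPM value and 2 lengths per transcript. The deposited read numbers are expected counts, estimates that need not be whole, and the TPM values are the authors' own. Per the labels' protocols, RNA was isolated with the RNeasy Fibrous Tissue Mini kit and libraries were made with a Clontech SMARTer mRNA-Seq kit. The submitters' processing notes list STAR 2.5.1a, featureCounts 1.4.6-p5 of Subread, and bcl2fastq, which do not write this layout. Not given in the sources used here were the program, build, annotation and strand setting behind the tables, so overlapping genes cannot be told apart.

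Of 86127 transcripts, 97.2% matched GENCODE M21 (GRCm38), which gave genes, symbols and coordinates. Between 0.221% and 0.325% of a library's reads had no match. Sums over the transcripts of each of 29542 genes were rounded to whole numbers. Genes were kept by filterByExpr (minimum count 10), scaled by TMM and tested with edgeR 4.0.16 (robust quasi-likelihood F test, two-sided, Benjamini-Hochberg threshold 0.05) on 6 group means of 16 libraries. EDL_Old 1 and EDL_Young 1 were left out, because title and file name disagree on age. The SE is the size of the log2 fold change over the square root of F. Promoter windows came from RefSeq (GRCm38.p6).

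Named genes were all genes called in TA, up to 6 members of each list by smallest p, the 10 next by adjusted p and the 10 with the smallest p in each difference. Ankrd1, Hdac4, Gadd45a, Myog, Myh1, Chrne and Rapsn, and genes given only as 0 reads or as a family share, were added after their values were seen. The genes and lists were chosen with earlier results of these data known. Alternatives used DESeq2 1.42.0, limma 3.58.1 (voom), other scalings, filters and library sets, thinned libraries and libraries left out. The procedure was tested on simulated data.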

Additional observations from a re-analysis of the deposited data

Results flagged for a closer look

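These genes are given because the test of the difference between the age changes of 2 muscles (edgeR, in the same fit) passed an adjusted p of 0.05. Each value is the log2 change in TA minus that in the other muscle. Against soleus the differences were -4.49 for Fmod, -2.50 for Prelp, -2.10 for Sbk2, -2.11 for Thbs4, -1.74 for Smtnl1, -1.59 for Gsn, -2.24 for Myh2, -1.94 for Aebp1 and -1.91 for Pcx. In all 9 the change was negative in TA and positive in soleus. For Dupd1 the difference was 1.58, with a positive change in both muscles. For Comp, with 1 read over old TA, the adjusted p was 0.00354.

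Against EDL, with 2 libraries per age, the differences were -4.04 for Myl3, -2.07 for Tpm3, -3.79 for Tnni1, -2.11 for Hspb7, -2.71 for Tnnc1, -1.85 for Myoz2, -2.37 for Tnnt1, -1.62 for Pacsin3, -1.41 for Lmcd1, -1.46 for Fabp3 and -1.78 for Pdlim1. All 11 had a positive change in EDL, and all but Tnnt1 a negative one in TA. For the pseudogene Gm2606, with 0 reads over old TA, the adjusted p was 0.0285. With limma-voom the adjusted p of Pacsin3 and Lmcd1 was 0.0917 and that of Gm2606 0.105, with GC and length trends removed these were 0.235, 0.0839 and 0.0651 (edgeR), and with all 18 libraries 0.759, 0.758 and 0.558 (edgeR). Lmcd1 also missed the threshold without old replicate 1 or 3 of TA (0.0531 and 0.0509, edgeR), and Gm2606 without any 1 old library or young replicate 2 (0.0538 to 0.103, edgeR).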

How the results depend on the processing

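No gene given with an adjusted p changed direction under any alternative run. In TA the 24 calls became 75 with DESeq2, 189 with no filter on low counts, 140 with the 6 TA libraries alone, 144 with those 6 on the 10859 genes of the full fit (added after seeing the data), 4 with all 18 libraries by title and 49 with GC and length trends removed. Against soleus the 14 calls became 51 with DESeq2, 7 with limma-voom, 228 with no filter, 27 with only the groups compared and 6 with all 18 libraries. Against EDL the 29 became 47 without TMM, 49 with mitochondrially encoded genes removed, 342 with DESeq2, 3 with limma-voom, 671 with no filter, 47 with the 5 CPM filter, 47 with the transcript length offset, 279 with only the groups compared, 8 with all 18 libraries and 9 with GC and length trends removed. The cause was not tested.

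Leaving out 1 TA library at a time gave 9 to 24 calls in TA, 8 to 13 against soleus and 8 to 29 against EDL. Against soleus 8 were left without old replicate 2 and 8 without young replicate 2. Against EDL 12, 16 and 8 were left without old replicates 1, 2 and 3, and 12 without young replicate 2. Of the 24 genes, 7 (Dupd1, Myoz2, Myl3, Eda2r, Ampd3, Myh2 and Chrna1) passed in all 6 such fits. Without TMM the median over all genes of the difference in age change between TA and soleus moved from -0.05 to -0.16.

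With the replicate number as a block 28 genes were called in TA, 19 of the 24 among them, 13 against soleus and 36 against EDL. With the replicate block within age the differences were 13 and 48. Deviations from the group mean in same-numbered old and young TA libraries had correlations over genes of -0.0021, 0.0196 and 0.0200. Differently numbered ones had -0.0332 to 0.0216. For young TA and young soleus these were 0.0330, 0.0539 and 0.120 with the same number and -0.156 to 0.138 with different numbers. For old TA and old soleus the same-numbered values were -0.0145, 0.00838 and 0.00690. Values this small cannot decide whether a number marks shared animals or a batch. Fewer reads in old TA limit low genes such as Krt8 and Emb.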

Other observations

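The genes next in order of p after the 24 called in TA missed the threshold. Riok3, a kinase of the RIO family, had 226, 224 and 219.8 CPM in young TA and 348, 380.4 and 348 CPM in old TA, with a narrow spread in each age (log2 fold change 0.68 ± 0.15, adjusted p = 0.0654). Ifitm2, an interferon-induced membrane protein, had 38.8, 43.7 and 37.3 against 20.5, 21.6 and 15.04 CPM (adjusted p = 0.0698). Ppp1r10, a regulatory subunit of protein phosphatase 1, had 7.54, 11.7 and 11.9 against 1.58, 3.005 and 3.01 CPM (adjusted p = 0.0698). None of the 3 overlapped between ages, and the fit on the 6 TA libraries called them (adjusted p = 0.000761, 0.00811 and 0.0249, edgeR). The zinc finger gene Zfp612 had 12.01, 12.00 and 11.9 CPM in young TA, almost level, and 2.37, 3.61 and 6.01 CPM in old TA (adjusted p = 0.0698).

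Of 20 measured genes of insulin and growth signalling 0 passed (edgeR, with 4 at an unadjusted p under 0.05, 1 called by DESeq2 and 0 by limma-voom). Igfbp5, which binds insulin-like growth factors, had 60.3, 62.8 and 54.2 CPM in young TA and 108, 124 and 74.2 CPM in old TA without overlap (adjusted p = 0.129). Irs1, an adaptor of the insulin receptor, had 17.04, 34.9 and 23.9 against 10.3, 14.4 and 13.03 CPM, lower in every old library (adjusted p = 0.234). Of 20 measured oxidative stress genes 0 passed (edgeR, with 2 at an unadjusted p under 0.05, 0 called by DESeq2 and 0 by limma-voom), and Hmox1, haem oxygenase 1, had 3.07, 3.35 and 2.98 against 7.89, 6.01 and 9.02 CPM (adjusted p = 0.470). Of 11 measured genes of developmental fibres 0 passed (edgeR, with 3 at an unadjusted p under 0.05, 1 called by DESeq2 and 0 by limma-voom). Myh8, the perinatal myosin heavy chain, had 0.279, 0.837 and 0.497 against 2.37, 1.803 and 5.01 CPM, low in both ages.

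Among satellite cell and myoblast markers, 6 of 10 had enough reads and 0 passed (edgeR, with 1 at an unadjusted p under 0.05, 0 called by DESeq2 and 0 by limma-voom). Myod1, a myogenic factor, had 16.2, 17.3 and 16.4 CPM in young TA and 17.4, 30.7 and 27.1 CPM in old TA (adjusted p = 0.708), and Chodl, chondrolectin, 9.22, 9.07 and 10.9 against 3.16, 3.61 and 0 CPM (adjusted p = 0.139). Pax7 and Fgfr4, under the count minimum, had 0 reads in all 3 old libraries, which were shallower, and at most 8 reads in a young one. Of 12 measured markers of smooth muscle and pericytes 0 passed (edgeR, with 0 at an unadjusted p under 0.05, 0 called by DESeq2 and 0 by limma-voom) and 0 were free of overlap. In the short lists of nuclei of fast IIb and of slow fibres, with 5 measured genes each, 0 passed in either (edgeR, with 0 at an unadjusted p under 0.05, 0 called by DESeq2 and 0 by limma-voom in the first; edgeR, with 0 at an unadjusted p under 0.05, 0 called by DESeq2 and 0 by limma-voom in the second).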
